A study of Rattus norvegicus with 9 samples.

Results

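The genes described here encode the machinery that stores, primes, releases and retrieves synaptic vesicles. They were taken by name from a list of 44 gene symbols, a rule that uses no measured value; 43 of the 44 were measured among 22888 genes, and Cplx1 was not analysed here. RNA was sequenced from the brains of male Sprague-Dawley rats, taken 1 day after surgery, in 9 libraries that form 3 groups of 3. The sham group (libraries 1, 3 and 5) had a sham operation. The model group (libraries 1, 3 and 4) had the middle cerebral artery occluded on a single side, which cuts the blood supply to much of that hemisphere and serves as a model of ischemic stroke. The astaxanthin group (libraries 1, 2 and 3) was fed the carotenoid astaxanthin by gavage, 45 mg/kg for 7 days, and then had the same occlusion. The labels name no brain region or side, no age, and no gavage in the other groups. They do not say that each library stands for a separate animal, so every p-value here measures the spread between libraries, which may be technical.

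At a synapse, vesicles loaded with transmitter are tethered by synapsins and Rab3, docked at the active zone by RIM, bassoon and piccolo, and primed by Munc13. A vesicle SNARE (Vamp) and the plasma membrane SNAREs (Snap25 and syntaxin) then zip together, complexin holds the assembled complex, and a synaptotagmin senses calcium and triggers fusion. Nsf and the SNAPs take the SNARE complex apart afterwards, and dynamin, amphiphysin, endophilin, synaptojanin and AP180 retrieve the membrane. In the brain these transcripts come mainly from neurons. In tissue RNA a lower level can mean fewer neurons, less RNA per neuron or a different piece of tissue. These cannot be told apart here.

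Levels are the deposited normalized reads per gene. A fold change is the difference between group means on the log2(value + 1) scale, given with its standard error (SE). The libraries held 52268061 to 76311125 reads, and every one of the 43 genes had at least 34 reads in every library. A pair of libraries stood apart. Astaxanthin 1 carried cerebellar transcripts: the summed level of 16 cerebellar genes was 9.26 times the sham mean there and 0.532 to 1.19 times in the other libraries, and Gabra6, the GABA receptor subunit that marks granule cells, reached 44128 normalized reads against at most 255.9 elsewhere. Model 3 was the poorest in neuronal transcripts: the mean of 17 pan-neuronal genes, on the log2 scale relative to sham, was -1.67, compared with -0.47 in model 1, -0.34 in model 4 and -0.57 to -0.16 in the astaxanthin libraries. The summed level of 12 neutrophil genes in model 3 was 57.9 times the sham mean, against 11.6 and 8.26 times in model 1 and model 4, 3.15 to 15.2 times in astaxanthin and 0.896 to 1.13 times in sham libraries, with Mpo and Ltf at 0. The summed level of 12 myelin genes was 2.16 times the sham mean in model 3, against 0.271 and 0.548 times in model 1 and model 4. It was 0.549 to 1.365 times in sham and 0.691 to 0.829 times in astaxanthin libraries. The median myelin gene of model 3 stood at -0.39 from sham on the log2 scale, and Mbp reached 1076966 normalized reads there against at most 503330 elsewhere. Choroid plexus and ependymal genes were high in sham 5 and astaxanthin 1 (2.95 and 4.98 times the sham mean). Their part in the results below was not tested, and the fold change of a single gene is given a second time, without model 3 or astaxanthin 1, where leaving that library out moved it by over 1.5 times.

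The abundance of the 43 genes spanned a wide range. Per kilobase of transcript, Snap25 had the highest mean level in sham, 58402 ± 16984 normalized reads per kilobase (SD, n = 3), followed by the vesicle protein gene Syp at 39961 ± 2535, whose sham libraries all lay below those of Snap25. Dnm1 (24489.7 ± 1199) and Vamp2 (24305 ± 1763) came next and did not differ beyond their spread. Rab3a held rank 5 at 21059 ± 2617 and Cplx2 rank 9 at 13288 ± 2083. At the other end stood Otof at 640.2 ± 115, then Sv2c, Unc13c and Syn3, neighbours whose spreads overlapped, and last Cplx3 at 291.0 ± 119. By the mean of the model libraries, Snap25 and Syp were again at ranks 1 and 2, Rab3a was at rank 9 and Cplx2 at rank 13, while Syt4 was at rank 11 after rank 25 in sham.

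**Figure D1:**
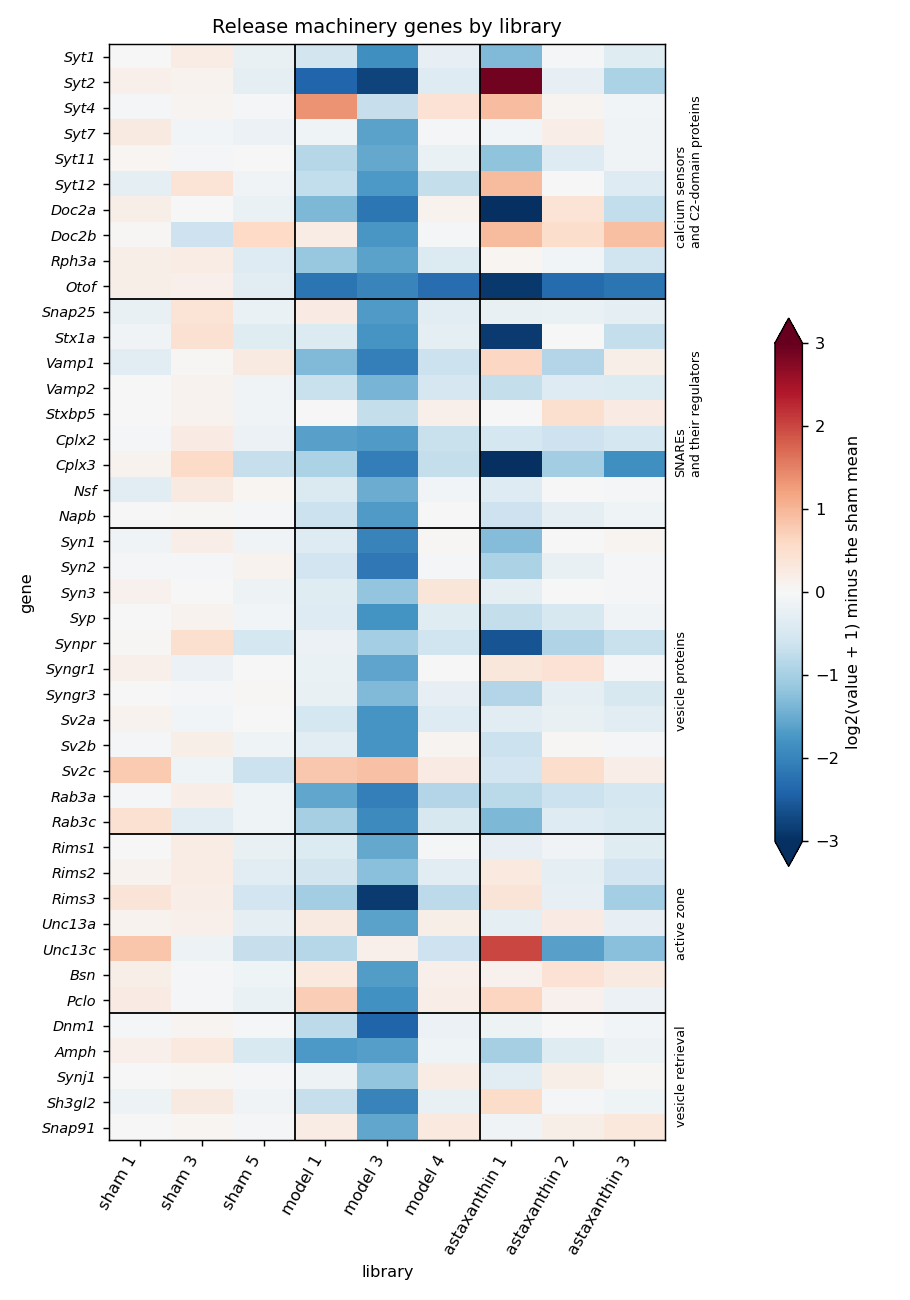
Level of the 43 release genes (rows, grouped by role) in each of the 9 libraries (columns), as log2(value + 1) minus the mean of the 3 sham libraries; colours saturate at 3 units. Model 3 is the bluest column, the Otof row is blue in all 6 libraries with an occlusion, and astaxanthin 1 holds both the deepest blue and the deepest red cells.

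The first comparison, model with sham, asked what occlusion alone did to these genes after a day. Most release genes had lower mean levels in the model libraries, and 3 passed the test: Otof, Rab3a and Cplx2 fell by 2.15, 1.50 and 1.32 on the log2 scale, or 4.44-fold, 2.83-fold and 2.50-fold. No member rose. The count of called members was 1 without sham 1, sham 3, sham 5 or model 1, and 5 without model 4. Over all genes the calls in these 5 fits numbered 79, 72, 171, 124 and 1041, against 848 with all libraries. Fold changes of 41 of the 43 genes lay below 0, with a median of -0.79, where 49.1% of all 17770 genes tested lay below 0 with a median of 0.02. The 3 called members were 7.0% of the 43, compared with 1.32% of all genes called lower, 3.45% called higher and 4.77% called in either direction (limma, Benjamini-Hochberg adjusted p under 0.05 over all genes).

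At an unadjusted p under 0.05, 15 members were lower (10.1% of all genes) and 0 higher (13.7%). In 19 members every model library was below every sham library (16.6% of all genes), and in 0 was it above (19.0%). Leaving out a library can only add to such counts. Without model 3, 19 members lay below sham (24.1% of all genes), and 3, Syt4, Snap91 and Unc13a, lay above it (26.6%). The size of the shift depended on the model libraries: the median fold change of the 43 genes was -0.895 without model 1 and -1.085 without model 4. Without model 3 it was -0.37, with 33 below 0. In that fit 2 members were called, and 549 of all genes. The fold changes of 30 members then became over 1.5 times smaller or changed sign, and 8 of these changed sign. Model 3 had the lowest value of 35 of the 43 genes, or 81.4%, whereas it was the lowest library for 19.9% of all genes. Measured from the sham mean, the median member stood at -0.53 in model 1, -1.69 in model 3 and -0.21 in model 4 (see the plot of the 43 genes by library). The pan-neuronal means of the same libraries were -0.47, -1.67 and -0.34. Of the 17 pan-neuronal genes, 17 had a fold change below 0, with a median of -0.81, and 0 were called.

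**Figure D2:**
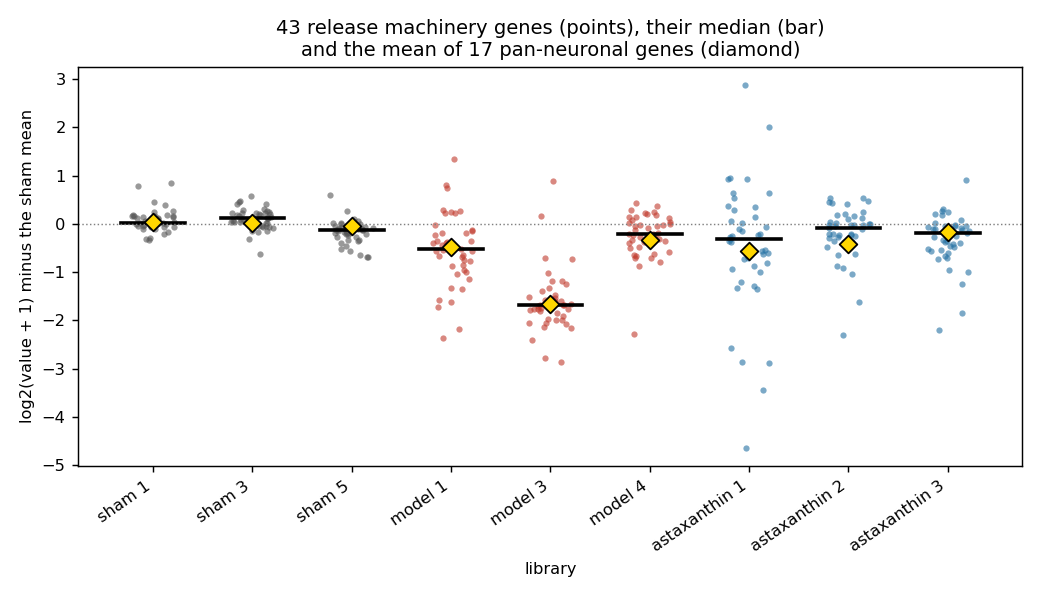
Each point is 1 of the 43 release genes in 1 library, on a scale of log2(value + 1) minus the sham mean; the bar is the median of the 43 and the diamond the mean of 17 pan-neuronal genes. The median was -1.69 in model 3 and between -0.53 and 0.11 in the other libraries; the diamond lay at -1.67 in model 3 and between -0.57 and 0.03 elsewhere.

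The genes of calcium sensing and C2-domain proteins included the member with the strongest change. Otof (chromosome 6, 25928055 to 26024631, build rn7) encodes otoferlin, a large ferlin with several C2 domains that is needed, in mice and humans, for release from the sensory hair cells of the inner ear. It stood at 5098, 5058 and 3602 normalized reads in sham 1, 3 and 5, at 998, 1148 and 925 in model 1, 3 and 4, and at 612, 916 and 986 in astaxanthin 1, 2 and 3. The 6 libraries with an occlusion all lay far below the lowest sham library and close to each other. Otof fell from 4586 ± 852 to 1024 ± 114 normalized reads (SD, n = 3), a log2 fold change of -2.15 ± 0.24 (SE; limma adjusted p = 0.00422). The call held in 9 of the 9 fits that left out a library, with adjusted p-values up to 0.0336, and in edgeR (adjusted p = 0.0103).

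Of the other 9 genes of this group, 0 were called (1.32% of all genes were called lower) and 5 had every model library below every sham library (16.6% of all genes): Syt1, Syt2, Syt11, Syt12 and Rph3a. The median over the 10 genes was -0.96, and -0.58 without model 3. Syt1, the sensor for fast synchronous release in the forebrain, stood at 35139, 41807 and 30619 in sham, 24421, 9904 and 30091 in model and 14204, 34782 and 27819 in astaxanthin libraries. Model 4 lay just under the lowest sham library and model 3 far below it, and the fold change of -0.88 ± 0.46 had a limma adjusted p of 0.28 and was -0.39 without model 3. Syt2, the related fast sensor of hindbrain and some inhibitory synapses, read 2368, 2318 and 1782 in sham, 413, 309 and 1632 in model and 15782, 1810.1 and 1107 in astaxanthin libraries. Model 1 and model 3 were low together while model 4 was near the lowest sham library, and astaxanthin 1, the library with cerebellar transcripts, was far above the rest. That spread left the fold change of Syt2 at -1.85 ± 0.96, with a limma adjusted p of 0.278. Rph3a, rabphilin, a partner of Rab3 with C2 domains, had 18805, 19564 and 12771 in sham and 7602, 5511 and 12659 in model libraries (-1.05 ± 0.33, limma adjusted p = 0.105). Its model 4 value lay just under that of sham 5. It passed the test in DESeq2 (adjusted p = 0.0379), which called 2943 of all genes where limma called 848. Syt12, a synaptotagmin that does not bind calcium, showed 1820.2, 2975 and 2097 in sham and 1338, 680.2 and 1378 in model libraries (-1.06 ± 0.40, limma adjusted p = 0.155). Syt11, another member without calcium binding, had model values of 22029.6 to 54856 against 60652 to 66288 in sham.

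Syt4 was the 1 gene of the group with a fold change above 0. This synaptotagmin of neuronal and secretory vesicles stood at 7679.8, 8439 and 7695 in sham, 20065, 4879.9 and 10632 in model and 15013, 8461 and 7481 in astaxanthin libraries. Model 1 was the highest library of all and model 4 lay above every sham library, while model 3 lay below them, so that the groups overlapped and the gene was not called. Syt7, the slow sensor of asynchronous release, ranged over 6341 to 8619 in sham and 2362 to 6973 in model libraries. Doc2a and Doc2b, high-affinity calcium sensors, ranged over 449 to 2186 and 597 to 2322 in model against 1762 to 2282 and 1297 to 3029 in sham. For these 3 genes model 3 was the lowest of the 3 model libraries and the groups overlapped.

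**Figure D3:**
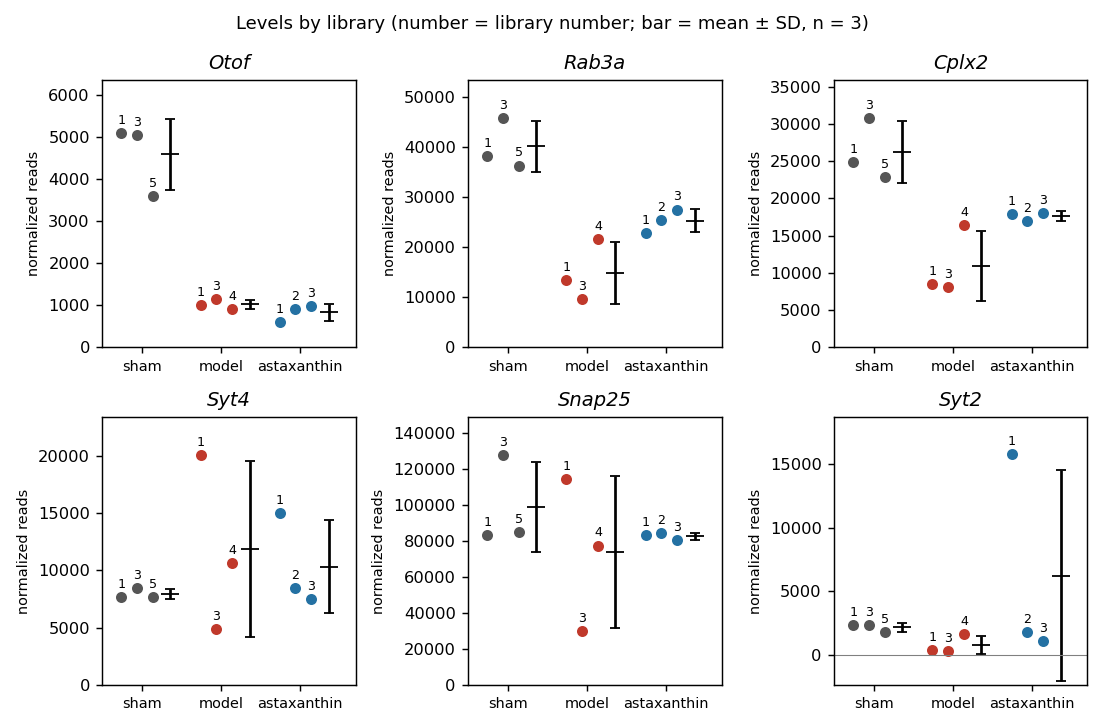
Normalized reads (vertical axes, linear) of 6 release genes in each library, with library numbers above the points and the mean ± SD (n = 3) as a bar. Otof is low in all 6 libraries with an occlusion. Rab3a and Cplx2 are lowest in model and intermediate with astaxanthin. Syt4 is highest in model 1 and Syt2 in astaxanthin 1, while Snap25 is highest in sham 3 and lowest in model 3.

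Among the SNAREs and their regulators, 9 of 9 fold changes were below 0 (49.1% of all genes), with a median of -0.81 that was -0.34 without model 3. In 4 genes the groups did not overlap (16.6% of all genes lay lower in this way), and Cplx2 was called (1.32%). Cplx2 (chromosome 17, 10222347 to 10293855), a complexin that binds the assembled SNARE complex, stood at 24825, 30852 and 22904 in sham, 8458, 8057 and 16415 in model and 17883, 16941 and 18087 in astaxanthin libraries. The 3 groups did not overlap: model 1 and model 3 were lowest, model 4 lay between them and the astaxanthin libraries, and the sham libraries were highest. Cplx2 fell from 26193 ± 4147 to 10977 ± 4714 normalized reads (SD, n = 3), a log2 fold change of -1.32 ± 0.28 (SE; limma adjusted p = 0.0357). This call was fragile: it held in 2 of the 9 fits that left out a library, without model 4 and without astaxanthin 1, and was lost in the other 7, with adjusted p-values up to 0.133. In edgeR the adjusted p was 0.0573.

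The vesicle SNAREs were not called with limma. Both passed in DESeq2, which called 2943 of all genes where limma called 848. Vamp2, the main vesicle SNARE of the forebrain, read 53241, 58102 and 50103 in sham, 34045, 20479 and 37829 in model and 32551, 41289 and 40109 in astaxanthin libraries. The model libraries lay below the sham libraries by a clear gap (-0.85 ± 0.25, limma adjusted p = 0.088; DESeq2 adjusted p = 0.0152). Vamp1, its relative of brainstem and spinal cord, read 17603, 22543 and 26273 in sham and 8663, 5254 and 14041 in model libraries (-1.34 ± 0.45, limma adjusted p = 0.118; DESeq2 adjusted p = 0.0408). Its astaxanthin values of 33859.9, 11969 and 24669.8 reached from the model range to above the sham range, highest in the library with cerebellar transcripts.

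The plasma membrane SNAREs were not separated between sham and model. Snap25, the plasma membrane SNARE that is anchored by lipid, stood at 83361, 127773 and 84906 in sham, 114143, 29607 and 77311 in model and 83162, 84121 and 80216 in astaxanthin libraries. Model 1 lay above sham 1 and sham 5, and model 3 alone was far lower. The fold change of Snap25 was -0.60 ± 0.44 (limma adjusted p = 0.449), and -0.04 without model 3. Stx1a, syntaxin 1A, had 14286, 20923 and 11974 in sham, 11541, 4481 and 12704 in model and 2104, 15116 and 9369 in astaxanthin libraries (-0.82 ± 0.70 in model against sham, limma adjusted p = 0.519; -0.34 without model 3). The lowest Stx1a level belonged to astaxanthin 1, and model 4 lay within the sham range. Cplx3, a complexin known from the ribbon synapses of the mouse retina, was the least abundant member, with 223 to 572 in model against 583 to 1405 in sham. Stxbp5, tomosyn, an inhibitor of SNARE assembly, ranged over 4039 to 7388 in model against 6226 to 7218 in sham. Nsf, the ATPase that separates spent complexes, ranged over 25925 to 68437 against 57636 to 88056, and its adaptor Napb over 9508 to 30444 against 29381 to 31449. Cplx3 did not overlap between the groups, and the other 3 were lowest in model 3 and overlapped with sham.

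In the vesicle protein group, 11 of 12 fold changes were below 0 (49.1% of all genes), with a median of -0.73 that was -0.27 without model 3. In 5 genes the groups did not overlap (16.6% of all genes), and Rab3a was called (1.32%). Rab3a (chromosome 16, 18684188 to 18688336), the main small GTPase of synaptic vesicles, stood at 38328, 45954 and 36393 in sham, 13479, 9659 and 21781 in model and 22922, 25509 and 27594 in astaxanthin libraries. As with Cplx2 the 3 groups did not overlap, and the astaxanthin libraries lay between model and sham. The share of all genes with this order of 3 groups is not given here. Rab3a fell from 40225 ± 5055 to 14973 ± 6197 normalized reads (SD, n = 3), a log2 fold change of -1.50 ± 0.28 (SE; limma adjusted p = 0.027; edgeR 0.0426). The call held in 5 of the 9 fits that left out a library and was lost without sham 1, sham 3, sham 5 or model 1, with adjusted p-values up to 0.111. Its relative Rab3c read 4083, 2395 and 2707 in sham and 1499.9, 789 and 2148 in model libraries (-1.13 ± 0.41, limma adjusted p = 0.144; -0.73 without model 3).

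None of the 7 genes for integral membrane proteins of the vesicle passed the test. Syp, synaptophysin, stood at 102609.7, 110295 and 96709.8 in sham, 79169.7, 29794 and 80038 in model and 62956, 73358 and 95038 in astaxanthin libraries (-0.85 ± 0.38, limma adjusted p = 0.216; -0.37 without model 3). Model 1 and model 4 were nearly equal and below every sham library, and model 3 lay far lower. Sv2a, the vesicle glycoprotein that binds the antiepileptic levetiracetam, showed 38926, 34138 and 36009 in sham, 25217, 10722 and 27866 in model and 28465, 31329 and 28909.8 in astaxanthin libraries (-0.89 ± 0.33, limma adjusted p = 0.152; -0.45 without model 3). Its relative Sv2b ranged over 9729 to 34746 in model against 29926 to 37206 in sham. Sv2c, the form found in basal ganglia, was the other gene with a fold change above 0: it had 2169, 1144 and 806 in sham and 2219, 2336 and 1497 in model libraries. It is the single member whose highest value lay in model 3, and sham 1 overlapped with the model group. The synaptogyrins Syngr1 and Syngr3 ranged over 2078 to 6241 and 4487 to 9631 in model against 5511 to 6923 and 10894 to 11487 in sham; the groups did not overlap for Syngr3. Synpr, synaptoporin, a relative of synaptophysin, ranged over 4446 to 7907 against 6270.4 to 12519.

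The synapsins, which hold vesicles in the reserve pool, were each lowest in model 3 and overlapped with sham. Syn1 read 31705, 39516 and 31974 in sham and 26042, 8557 and 35044 in model libraries (-0.79 ± 0.54, limma adjusted p = 0.412; -0.18 without model 3). Model 4 lay within the sham range and model 1 below it. Syn2 ranged over 5524 to 23954 in model against 23367 to 26061 in sham, and Syn3 over 1750.5 to 5141 against 3585 to 4381, with its highest value in model 4.

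At the active zone 0 of 7 genes were called (1.32% of all genes), and 7 fold changes lay below 0 (49.1%), with a median of -0.44 that was -0.21 without model 3. In 2 genes, Rims2 and Rims3, the groups did not overlap (16.6%). Rims3, a short RIM protein that holds only the last C2 domain of the longer forms, stood at 2606, 2284 and 1347 in sham, 978, 274 and 1161 in model and 2598, 1699 and 995 in astaxanthin libraries (-1.56 ± 0.58 in model against sham, limma adjusted p = 0.149; -0.91 without model 3). The full-length scaffolds Rims1 and Rims2 ranged over 4974 to 14169.9 and 3082 to 5815 in model against 12354 to 16824 and 5849 to 8566 in sham. Unc13a, Munc13-1, the priming factor of most forebrain synapses, had 17186, 17556 and 13186 in sham and 19115, 5243 and 17862 in model libraries (-0.38 ± 0.46, limma adjusted p = 0.652). Model 1 and model 4 were both above the 3 sham libraries and model 3 was far below them; without model 3 the fold change of Unc13a was 0.22 (limma adjusted p = 0.572). Unc13c, the Munc13 form of the cerebellum, had 5606, 2808 and 1943 in sham, 1715, 3504 and 2022 in model and 12493, 1010.2 and 1316 in astaxanthin libraries (-0.44 ± 0.88 in model against sham, limma adjusted p = 0.792; -0.75 without model 3). Astaxanthin 1 was again the highest. The scaffolds bassoon and piccolo were also low in model 3 and not in the other model libraries: Bsn had 21625, 5482 and 19549.9 in the model libraries against 16125 to 20001 in sham, and Pclo had 28394, 4841 and 19377 against 14681 to 20052.

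For vesicle retrieval, 5 of 5 fold changes lay below 0 (49.1% of all genes), with a median of -0.97 that was -0.46 without model 3. There 0 genes were called (1.32%), and the groups did not overlap for Dnm1 and Sh3gl2, 2 of the 5 (16.6%). Dnm1, the dynamin that pinches vesicles off, stood at 76203, 83340.4 and 77192 in sham, 46001, 14839 and 69352 in model and 71409.6, 77767 and 74647 in astaxanthin libraries. The 3 model libraries were far apart from each other, and all lay below the sham range (-1.12 ± 0.48, limma adjusted p = 0.197; -0.48 without model 3). Amph, amphiphysin, which recruits dynamin, had 18827, 20794 and 12214 in sham and 5097, 5335 and 15389.9 in model libraries (-1.17 ± 0.44, limma adjusted p = 0.157). Here model 1 was as low as model 3, and model 4 lay within the sham range. Sh3gl2, endophilin A1, ranged over 3222 to 11072 in model against 11493 to 15503 in sham. Synj1, the lipid phosphatase that strips the coat, and Snap91, the clathrin adaptor AP180, ranged over 12393 to 32888 and 8142 to 29264 against 27210.2 to 29137 and 22958 to 25031, low in model 3 and above sham in model 4.

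**Figure D4:**
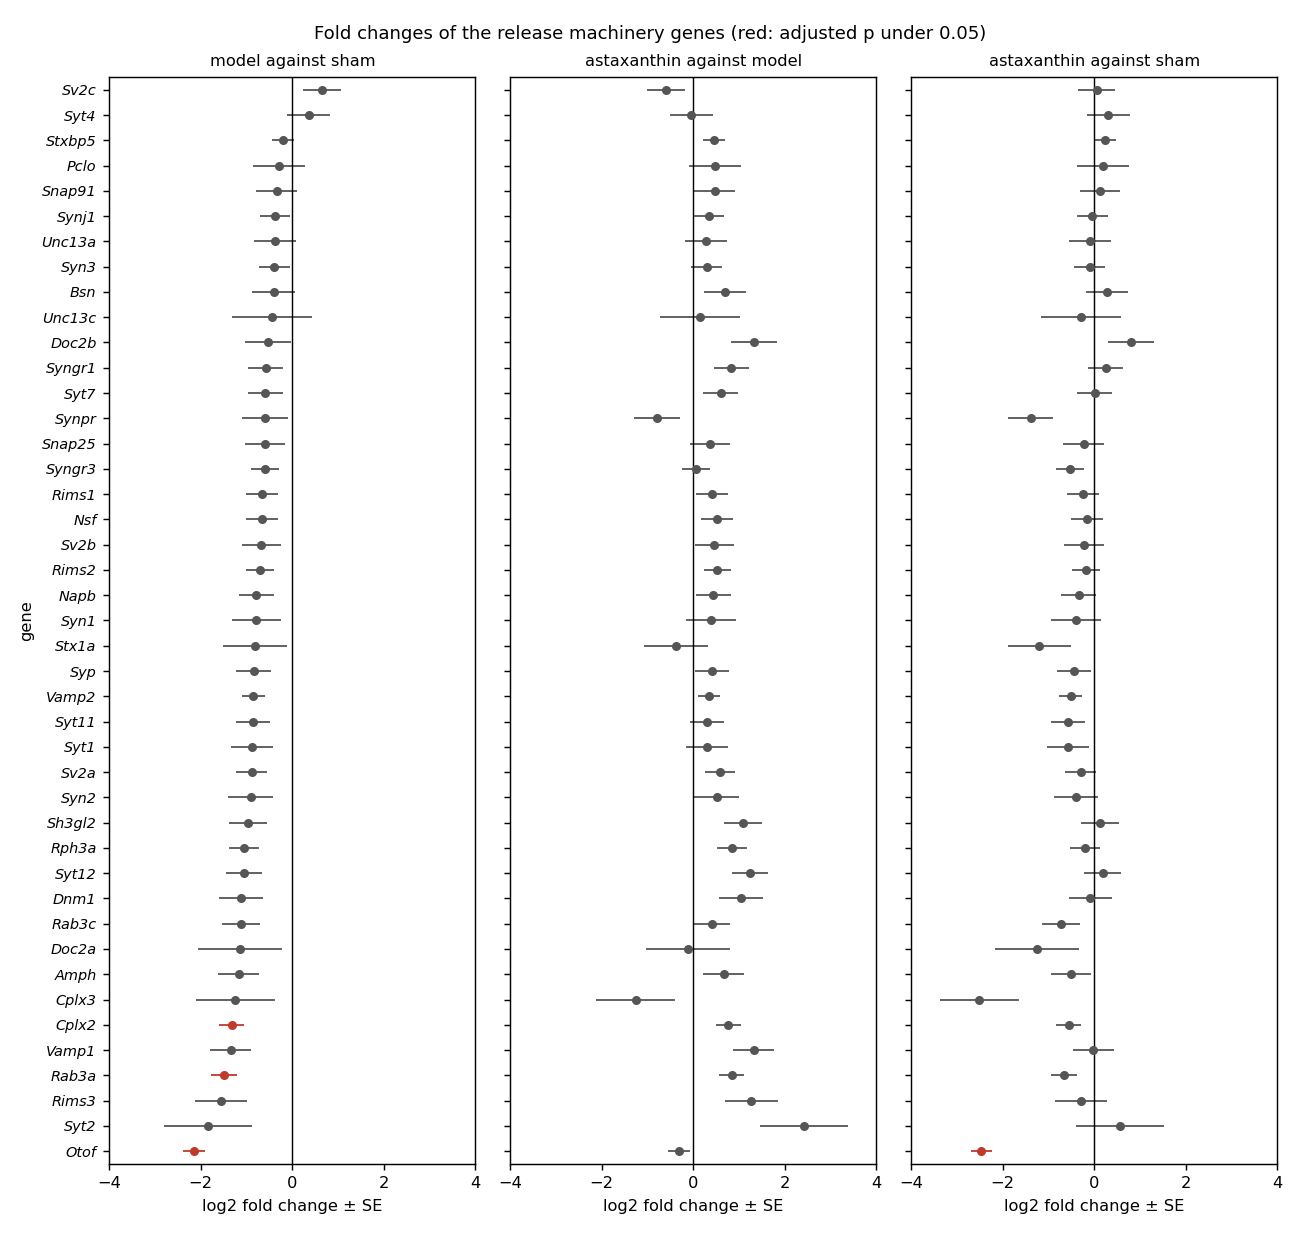
Log2 fold changes (points) with SE (lines) of the 43 release genes in the 3 comparisons, in the order of model against sham; red marks a limma adjusted p under 0.05. Otof, Rab3a and Cplx2 are red on the left, 0 genes in the middle and Otof on the right.

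Promoter sequences are shown for Otof, Rab3a and Cplx2, the 3 members that passed the test, because they are the genes on which the comparison turns. They come from RefSeq (build GRCr8, which differs from the build of the tables), as the table of promoters holds them, and run from 250 bases before to 50 bases after the annotated start, written 5′ to 3′ along the gene. Capitals mark matches, on either strand, to GGGCGG (a GC box, the letters of the Sp1 family) or TGACG (part of the cyclic AMP response element); no base belonged to both motifs. The Otof promoter, at chr6:31647664-31647963 on the plus strand, holds 1 GC box. The Rab3a promoter, at chr16:18722224-18722523 on the minus strand, holds 2 GC boxes and 1 TGACG. The Cplx2 promoter, at chr17:10236704-10237003 on the minus strand, holds 1 of each.
Otof: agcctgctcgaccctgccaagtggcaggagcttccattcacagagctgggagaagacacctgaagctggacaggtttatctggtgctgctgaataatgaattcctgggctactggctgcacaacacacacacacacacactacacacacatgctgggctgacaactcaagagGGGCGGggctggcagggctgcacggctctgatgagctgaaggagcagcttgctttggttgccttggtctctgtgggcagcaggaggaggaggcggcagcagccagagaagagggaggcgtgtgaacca
Rab3a: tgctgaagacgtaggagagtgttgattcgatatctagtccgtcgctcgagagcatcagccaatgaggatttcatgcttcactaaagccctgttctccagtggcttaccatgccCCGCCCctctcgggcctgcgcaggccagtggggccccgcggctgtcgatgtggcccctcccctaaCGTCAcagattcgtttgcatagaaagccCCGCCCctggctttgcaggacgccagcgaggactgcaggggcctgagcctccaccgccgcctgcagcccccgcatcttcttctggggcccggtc
Cplx2: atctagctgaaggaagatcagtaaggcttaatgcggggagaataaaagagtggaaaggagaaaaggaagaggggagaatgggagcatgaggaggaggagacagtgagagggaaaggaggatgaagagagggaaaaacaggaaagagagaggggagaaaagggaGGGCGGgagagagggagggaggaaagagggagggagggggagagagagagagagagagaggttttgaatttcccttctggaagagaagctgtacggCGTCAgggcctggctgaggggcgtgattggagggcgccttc
A RefSeq promoter was found for 33 of the 43 genes. Of these, 22 (66.7%) held GGGCGG or its complement, against 33.1% of 33469 promoters of the same length, and 10 (30.3%) held TGACG, against 21.2%. TATAAA was in 0 of the 33 and in 14.2% of all. The letters TCAGCACC and GGACAGC, from the element bound by REST, a repressor of neuronal genes, were in 3 (9.1%, against 1.5%) and 7 (21.2%, against 6.6%). The median GC content of the 33 was 63.0%, compared with 51.7% for all promoters, and no adjustment was made for it. A match is a description of the letters and not a binding site.

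Since pan-neuronal genes were lower too, each member was also described relative to the mean of the 17 pan-neuronal genes in the same library, with no test. Against sham, 2 members lay lower in all 3 model libraries on this scale, Rab3a and Otof (1.37% of all genes). Otof stood at -1.71, -0.31 and -1.96 in model 1, 3 and 4 relative to its sham mean, and at -2.32, -1.89 and -2.04 in the astaxanthin libraries. Its model 3 value lay just under that of the lowest sham library, sham 5, at -0.28. Rab3a stood at -1.10, -0.38 and -0.54 in the model and at -0.23, -0.23 and -0.37 in the astaxanthin libraries. Cplx2 overlapped with sham through model 3, at -0.02, while model 1 and model 4 were at -1.15 and -0.33. Another 6 members lay higher in all 3 model libraries, Syt4, Syn3, Syngr3, Snap91, Stxbp5 and Synj1, where 48.2% of all genes did so. Syt4 stood at 1.81, 0.97 and 0.76. Without model 3, 4 members lay lower (Vamp2, Cplx2, Rab3a and Otof), where 8.59% of all genes did so. Another 11 lay higher (49.8% of all genes).

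Ratios between relatives within a library do not depend on library scaling, and 18 were examined (log2 of the ratio of value + 1; exact two-sided permutation test over 3 against 3 libraries, in which no p can fall below 0.1). In model against sham 3 ratios did not overlap. Syt4/Syt1 was higher in model (-0.94 ± 0.61 against -2.16 ± 0.16, SD, n = 3), with single values of -0.28, -1.02 and -1.50 in model 1, 3 and 4. Syt2/Syt1 (-5.03 ± 0.84 against -4.05 ± 0.15) and Rims3/Rims1 (-3.75 ± 0.37 against -2.85 ± 0.37) were lower. Each had the smallest p the exact permutation test can give, 0.1, and an adjusted p of 0.6 over the 18 ratios, so that 0 passed. Ratios such as Syt11/Syt1 (0.85 ± 0.32 against 0.83 ± 0.27) and Rims2/Rims1 (-1.03 ± 0.31 against -0.97 ± 0.10) had group means that differed by less than the SD of the sham libraries.

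The transcript table listed 129 transcripts of the 43 genes, of which 114 could be tested among 32824. In model against sham 1 was called, Otof-202 (47 exons; log2 fold change -2.93 ± 0.40 SE, limma adjusted p = 0.0261), where 0.11% of all transcripts were called lower and 0.579% higher. The call was lost without sham 3, sham 5 or model 3, and without model 4 a total of 3 transcripts of these genes were called. In the other comparisons 0 transcripts of these genes were called (astaxanthin against model, 0.0274% of all lower and 0.0244% higher; astaxanthin against sham, 0.0548% lower and 0.149% higher). Shares of a gene's reads given to single transcripts are estimates of the authors' software and were picked for description after their values were seen. Otof-202 took 98.3%, 97.5% and 94.9% of Otof reads in sham 1, 3 and 5. In model 3 and model 4 its share was 40.7% and 45.1%, and the rest went mainly to Otof-201, at 662.9 and 475.9 normalized reads against 57.6 to 129.1 in sham, while model 1 kept 95.4%. The share was 78.4%, 99.1% and 97.9% in the astaxanthin libraries. Snap25-201 took 56.5%, 43.2% and 56.7% of Snap25 reads in sham, 81.7%, 71.1% and 63.8% in model, and 27.8%, 62.2% and 60.2% in astaxanthin libraries, almost all of the rest being Snap25-202. The model libraries lay above the sham libraries, and the lowest share was that of astaxanthin 1. Stx1a-202 took 56.2% to 58.2% in sham, 43.6% to 54.0% in model and 47.0% to 55.5% in astaxanthin libraries, so that sham lay above the others.

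**Figure D5:**
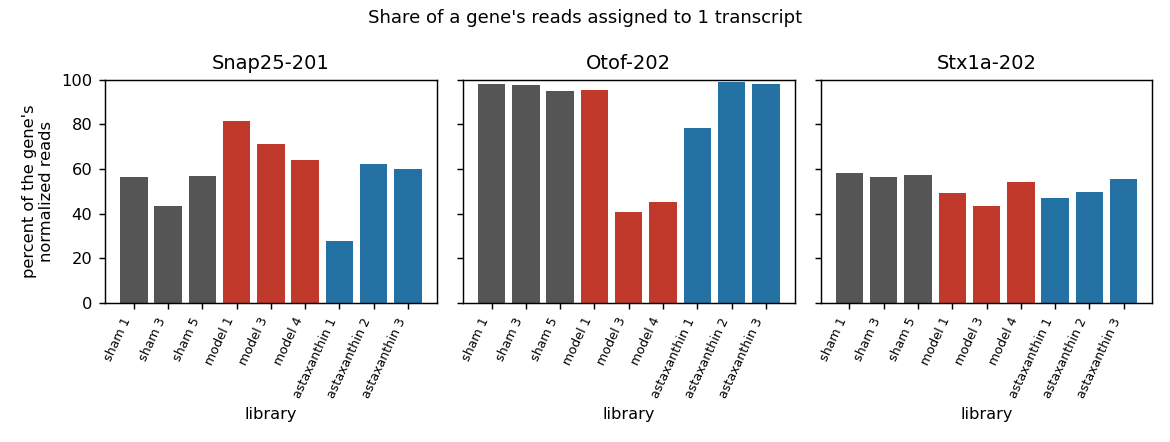
Percent of a gene's normalized reads assigned to Snap25-201, Otof-202 and Stx1a-202, the transcript of each gene with the highest mean share in sham, in each library (bars from 0). Snap25-201 lies at 63.8% or more in the model libraries and at 56.7% or less in sham; Otof-202 drops to 40.7% and 45.1% in model 3 and model 4.

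The second comparison, astaxanthin with model, asked whether the drug moved these genes after the occlusion. With limma 0 members were called in either direction, as were 0 of all 17770 genes (0.0%); edgeR called 0 genes, and DESeq2 called 204 genes but 0 members. At an unadjusted p under 0.05 in limma, 8 members were higher (3.86% of all genes) and 0 lower (5.03%). The median fold change was 0.45, with 7 members below 0 (50.9% of all genes, whose median was -0.01). That median rests on a single library: without model 3 it was -0.01, with 21 members above 0 and 22 below. Without model 4 it was 0.73.

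In 7 members every astaxanthin library was above every model library, Syt12, Sv2a, Cplx2, Rab3a, Dnm1, Doc2b and Sh3gl2 (5.72% of all genes), and 0 members lay below (7.24%). Without model 3, which can only add to these counts, 7 lay above (11.5%) and Synpr, Syngr3 and Cplx3 below (13.2%), but the fold changes of 29 members became over 1.5 times smaller or changed sign, and 15 of these changed sign. Without astaxanthin 1, 11 lay above (10.4%) and Unc13c below (11.2%). The fold change was 0.84 ± 0.28 for Rab3a and 0.76 ± 0.28 for Cplx2 (limma adjusted p = 0.548 for both), the 2 called members that were intermediate with astaxanthin. Both were singled out by low levels in the model libraries, which are also the reference here. A level above the model is in part expected from that choice. The groups of Rab3a were close: its lowest astaxanthin library stood at 22922 and model 4 at 21781. Those of Cplx2 were closer, at 16941 and 16415. Doc2b, with 2322, 597 and 1934 in model and 3879.6, 2899 and 3739 in astaxanthin libraries, differed by 1.32 ± 0.51 and Sh3gl2 by 1.09 ± 0.42 (limma adjusted p = 0.548 for both), and by 0.71 and 0.58 without model 3. Dnm1, at 1.04 ± 0.48 (limma adjusted p = 0.567) and at 0.40 without model 3, had astaxanthin values close to each other and close to sham. Syt12 had the smallest p of the 43, with a fold change of 1.24 ± 0.40 (limma adjusted p = 0.548) and its highest level, 4307, in astaxanthin 1. Syt2, at 2.41 ± 0.96, and Vamp1, at 1.32 ± 0.45 (limma adjusted p = 0.548 for both), also had their highest level in that library, and their groups overlapped. Without astaxanthin 1 the fold change of Syt2 was 1.25. For the remaining genes among the 12 with the smallest p, fold changes were 0.84 ± 0.33 (Rph3a), 1.27 ± 0.58 (Rims3), 0.83 ± 0.38 (Syngr1) and 0.45 ± 0.24 (Stxbp5), with limma adjusted p-values of 0.548 to 0.589. Without model 3 those of Rims3, Syngr1 and Stxbp5 were 0.62, 0.34 and 0.19. Otof did not follow Rab3a and Cplx2: at 612 to 986 normalized reads it overlapped with the model libraries.

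Relative to the pan-neuronal genes of the same library, Rab3a and Doc2b were higher in all 3 astaxanthin than in all 3 model libraries (0.81% of all genes), and Synpr and Cplx3 lower (11.5%). The groups of Rab3a nearly touched on this scale, with astaxanthin 3 at -0.37 and model 3 at -0.38. Among the 18 ratios, Syngr1/Syngr3 was higher with astaxanthin (-0.08 ± 0.41 against -0.85 ± 0.25, SD, n = 3), and Cplx3/Cplx2 (-6.73 ± 1.92 against -4.71 ± 0.54) and Synpr/Syp (-4.47 ± 0.80 against -3.27 ± 0.50) were lower. The exact permutation p of each was 0.1, the smallest possible, and the adjusted p 0.514. Astaxanthin 1 had the extreme value of each of these 3 ratios.

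The third comparison, astaxanthin with sham, shares its libraries with the others. Otof was the 1 member called: it fell from 4586 ± 852 to 838 ± 199 normalized reads (SD, n = 3), a log2 fold change of -2.46 ± 0.24 (SE; limma adjusted p = 0.011). Of all genes 0.0394% were called lower, 0.236% higher and 0.276% in either direction. The call was lost without sham 1, sham 3 or astaxanthin 3 (adjusted p up to 0.0933) and in edgeR (adjusted p = 0.063), and kept in DESeq2 (adjusted p = 2.04e-18). Fold changes of 31 members were below 0 (46.7% of all genes), with a median of -0.23, which was -0.13 without sham 3 and -0.35 without sham 5. At an unadjusted p under 0.05, 4 members were lower (5.35%) and 0 higher (6.99%).

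In 12 members the groups did not overlap and astaxanthin was lower, Syt11, Syp, Synpr, Syngr3, Vamp2, Sv2a, Cplx2, Cplx3, Rab3a, Rab3c, Napb and Otof (11.4% of all genes); 0 were higher (13.0%). Without astaxanthin 1 these were 13 lower (19.4%) and 3 higher (21.5%), Snap91, Stxbp5 and Bsn. Rab3a, at -0.66 ± 0.28 (limma adjusted p = 0.393), and Cplx2, at -0.56 ± 0.28 (0.447), stood below sham in every astaxanthin library, by less than in the model. Vamp2 was at -0.51 ± 0.25 (limma adjusted p = 0.446). Synpr stood at 9218, 12519 and 6270.4 in sham, 7907, 4446 and 5982 in model and 1502, 4780.3 and 5629 in astaxanthin libraries (-1.39 ± 0.50 against sham, limma adjusted p = 0.323). Cplx3 stood at 1021, 1405 and 583, 488, 223 and 572 and 36.9, 456 and 262 (-2.51 ± 0.86 against sham, limma adjusted p = 0.31). Without astaxanthin 1 the fold changes were -0.79 for Synpr and -1.44 for Cplx3. Both were lowest in that library, and so were Stx1a, Doc2a and Otof, 5 members in all. Other members among the 12 smallest p were Rab3c (-0.73 ± 0.41), Syngr3 (-0.54 ± 0.30), Stx1a (-1.20 ± 0.70), Doc2b (0.80 ± 0.51), Syt11 (-0.57 ± 0.37) and Doc2a (-1.25 ± 0.91), with limma adjusted p-values of 0.493 to 0.605. Without astaxanthin 1 the fold changes were -0.42 for Rab3c, -0.36 for Stx1a, -0.25 for Syt11 and -0.16 for Doc2a. Over the 43 genes, 22 became over 1.5 times smaller or changed sign. Relative to the pan-neuronal genes of each library, Synpr, Rab3a and Otof lay lower than sham in all 3 astaxanthin libraries (2.74% of all genes) and 8 members higher (34.1%).

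Further genes of the release pathway and of vesicle filling, which are not among the 43, were counted in the same way. Of 80 other release genes measured, 2 were called lower in model against sham and 0 higher. Sncb, beta-synuclein, fell from 32094 ± 3909 to 14611 ± 4035 normalized reads (log2 fold change -1.16 ± 0.23 SE, limma adjusted p = 0.0307). Syt3, a calcium-binding synaptotagmin, fell from 3283 ± 139 to 1419 ± 587 (-1.29 ± 0.28 SE, limma adjusted p = 0.0388). Whether these 2 calls hold with a library left out is not given here. In such fits the calls over all genes ranged from 72 to 1608. In all, 1.32% of all genes were called lower and 3.45% higher. The median fold change of the 80 was -0.21, with 45 below 0, where 49.1% of all genes lay below 0. Of 17 vesicle transporter and proton pump genes, 0 were called, 16 fold changes lay below 0 (49.1% of all genes) and the median was -0.59. The mean of these 17, on the log2 scale relative to sham, was -0.35 in model 1, -1.14 in model 3 and -0.47 in model 4. Neither list had a call in the 2 comparisons with astaxanthin.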

How the data were processed

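The authors deposited gene and transcript tables of signal values, reads already normalized by library; the tools named, per the submitters' processing notes, are FastQC, STAR, StringTie and DESeq2, with build rn7, versions and strand setting not given in the sources used here. Without strand, reads of a gene and of an overlapping antisense gene look alike. All values (100%) were whole multiples of a library's unit within 0.01, so reads were recovered for edgeR 4.0.16 and DESeq2 1.42.0 as alternatives. Gene reads equalled summed transcript reads in 22888 of 22888 genes.

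The main test was limma 3.58.1 (R 4.3.3) on log2(value + 1) computed from the deposited values, with trend and robust moderation, group as the only term and all 9 libraries in 1 fit. Genes reaching 0.5 in 3 or more libraries (17770, with 43 members) were tested two-sided, with Benjamini-Hochberg adjustment over all genes at 0.05; the script was tested on simulated data. The pseudocount understates changes of low genes. Means of 3 libraries are given with SD. Ratios were compared by exact permutation tests (numpy 2.4.6).

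The members, the gene lists and the tests were chosen with earlier results of these data known. Levels are given for all members. Fold changes with adjusted p are printed for members past the threshold, the 12 with the smallest p in a comparison and, for model against sham, 10 genes chosen by role (Snap25, Syt1, Vamp2, Stx1a, Syp, Syn1, Unc13a, Unc13c, Syt2, Otof); of other lists, up to 4 called genes. Promoters came from RefSeq (GRCr8) by symbol. Cplx1, and Snap23, Fer1l5 and Slc18a3 of the other lists, were not analysed here. Libraries with the same number (1 and 3) did not deviate together (correlations of -0.123 to 0.067), so no pairing was used.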

Additional observations from a re-analysis of the deposited data

How the results depend on the processing

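The count of members called in model against sham (3) was 1 with only the 2 groups compared in the fit and 1 to 5 when a library was left out. It was 5 without astaxanthin 1 and model 3 together, 2 with edgeR and 6 with DESeq2, which added Vamp2, Vamp1 and Rph3a. All genes called numbered 848 with limma, 721 with edgeR and 2943 with DESeq2. In limma they numbered 928 with only the 2 groups compared, 72 to 1608 with a library left out and 2710 without astaxanthin 1 and model 3 together. In astaxanthin against sham (1) the count of members was 0 with only the 2 groups compared, 0 with edgeR and 0 to 1 with a library left out. All genes called there numbered 4, 0 and 1 to 149. With the library number as a replicate block the counts were 0 in both comparisons, as were the calls over all genes. The median fold change was then -1.131 in model against sham. In astaxanthin against sham it was -0.399 (without a library, -0.348 to -0.125). The same-numbered libraries did not deviate together. Transcripts called in model against sham numbered 0 to 3 with a library left out. The fold change of Unc13a was -0.711 to 0.222 with a library left out (0.222 without model 3) and 0.222 without astaxanthin 1 and model 3 together. Members whose groups did not overlap in astaxanthin against model were 12 without astaxanthin 1, in place of 7. Of all genes, 11.2% then lay lower and 10.4% higher, in place of 7.24% and 5.72%. Relative to pan-neuronal genes in model against sham such members were 15 without model 3, in place of 8. On that scale 8.59% of all genes lay lower and 49.8% higher, in place of 1.37% and 48.2%. These counts, and the role-group medians and counts of smaller fold changes without a library, were chosen after seeing the data. Other pseudocounts (0.1 and 10), filters and scalings changed no count of called members. With the number of libraries at 3 a group, the exact tests cannot pass the threshold.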
